A study of Mus musculus with 211 samples.

Results

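The genes described here are 29 genes for lysosomal enzymes and lysosomal membrane proteins, taken as a list by symbol and found by Ensembl identifier among the 48709 genes of the expression table, and every one of the 29 was present. They are 10 proteases (*Ctsa*, *Ctsb*, *Ctsc*, *Ctsd*, *Ctsh*, *Ctsl*, *Ctss*, *Ctsz*, *Lgmn*, *Tpp1*), 6 glycosidases (*Hexa*, *Gaa*, *Gusb*, *Man2b1*, *Neu1*, *Glb1*), 6 genes of lipid breakdown and lipid export (*Asah1*, *Lipa*, *Npc1*, *Npc2*, *Ppt1*, *Psap*), 6 membrane proteins (*Lamp1*, *Lamp2*, *Cd63*, *Cd68*, *Scarb2*, *Mcoln1*) and *Grn*, the progranulin gene. The cells came from the cochleae of adult CD1 mice carrying Lfng-EGFP, a transgene in which regulatory DNA of Lfng drives EGFP to mark supporting cells, at P60 (8 Fluidigm C1 captures) and at P120 (4 captures). No other treatment separates the groups. Viable GFP-bright cells were sorted, each capture pooled the cochleae of several mice of both sexes, and the study notes that the transgene also marks capillary endothelial cells, which it removed.

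A cell held between 41 and 5361476 reads on genes, with 164 cells at 50000 or more and 47 under it. Capture 10c stood apart, with a median of 451 reads over its 13 cells. The markers went against the label of the cells. At least 3 of 11 neutrophil genes had 10 or more reads in 197 cells and took 15.6% of all reads, whereas at least 3 of 15 supporting cell genes did so in 10 cells and took 0.0501%. No cell passed this count for the 8 hair cell or the 9 endothelial genes, 3 cells passed it for 11 monocyte and macrophage genes, and 20 cells for 8 basophil and mast cell genes. The cells are therefore called here by capture, by age and by what they express.

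The lysosome is the acidic organelle in which a cell digests what it has engulfed and what it recycles. Its hydrolases are made in the endoplasmic reticulum, most are tagged with mannose 6-phosphate in the Golgi, and they become active at low pH inside a membrane coated by heavily glycosylated proteins such as LAMP1, LAMP2 and CD63. In granulocytes the azurophil (primary) granule is a lysosome-related compartment that carries CD63 in its membrane and is filled during the promyelocyte stage with serine proteases such as elastase, which cathepsin C converts to their active form. Many lysosomal genes carry the E-box CACGTG near their start, the core of the element read by the transcription factors TFEB and TFE3.

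RefSeq promoter windows (GRCm38.p6, 250 bases before to 50 bases after a start) matched 25 of the 29 genes, in 28 windows. CACGTG, which reads the same on both strands, was in 8 of the 28 windows, those of *Ctsa*, *Ctsd*, *Ctsl*, *Gaa*, *Glb1*, *Lamp1*, *Lgmn* and *Mcoln1*, and in 7.15% of all 32851 windows. The longer form TCACGTGA, which contains it, was in 3 (*Ctsa*, *Ctsd*, *Mcoln1*) and in 0.974% of all. The 250 bases before the start of 4 genes on which the results below turn are given with CACGTG in capitals, to show a promoter with repeated E-boxes beside promoters with none. A match is a description of the letters only, and these 4 windows stop at the start site.
Lamp1, chr8:13158911-13159160, plus strand: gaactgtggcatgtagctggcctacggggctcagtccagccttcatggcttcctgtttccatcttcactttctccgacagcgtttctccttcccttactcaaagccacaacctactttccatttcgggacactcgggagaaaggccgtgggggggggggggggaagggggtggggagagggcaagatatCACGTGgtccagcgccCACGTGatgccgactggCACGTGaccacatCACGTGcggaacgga
Ctsd, chr7:142387828-142388077, minus strand: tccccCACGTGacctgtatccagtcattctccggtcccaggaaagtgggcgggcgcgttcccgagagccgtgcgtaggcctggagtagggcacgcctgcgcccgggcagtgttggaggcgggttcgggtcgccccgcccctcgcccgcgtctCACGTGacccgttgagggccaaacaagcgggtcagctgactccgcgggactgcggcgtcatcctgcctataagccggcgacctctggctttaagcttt
Cd63, chr10:128909095-128909344, plus strand: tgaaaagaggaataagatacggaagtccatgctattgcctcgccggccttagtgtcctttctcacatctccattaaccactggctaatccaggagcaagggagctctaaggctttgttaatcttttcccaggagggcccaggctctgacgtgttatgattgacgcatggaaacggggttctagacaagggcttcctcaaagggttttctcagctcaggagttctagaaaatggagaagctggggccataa
Cd68, chr11:69666171-69666420, minus strand: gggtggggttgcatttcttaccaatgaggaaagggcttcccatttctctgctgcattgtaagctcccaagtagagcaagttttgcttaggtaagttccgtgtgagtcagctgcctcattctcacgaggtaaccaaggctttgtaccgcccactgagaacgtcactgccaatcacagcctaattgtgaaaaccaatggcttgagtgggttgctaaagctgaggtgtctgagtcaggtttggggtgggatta
The *Lamp1* stretch held 4 copies, at 61, 45, 28 and 15 bases before the start, and the *Ctsd* stretch held 2, at 245 and 98 bases before it. The *Cd63* and *Cd68* stretches held none. The class comparison described below is set beside these matches at its end.

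*Cd63* is also the member of the list for which the study designed single-cell qPCR primers, shown because this gene led the list by reads.
Cd63 forward: gggcctgcaaggagaactac
Cd63 reverse: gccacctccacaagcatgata
The forward primer lies in coding sequence of exon 3 (GRCm38, chr10:128911606-128911625) and the reverse primer in coding sequence of exon 4 (chr10:128911815-128911835) of transcript *Cd63*-201, and they bound 76 bases of its mRNA. Both matched all 6 annotated *Cd63* transcripts. The qPCR measurements themselves were not analysed here.

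Together the 29 genes took 906231 reads, 0.412% of the 220154506 reads on genes. The membrane proteins held 35.6% of these reads, the proteases 28.8%, the glycosidases 18.4%, the lipid genes 14.9% and *Grn* 2.32%. A small group carried most of them. *Cd63*, a tetraspanin of lysosomes and azurophil granules, had 18.6% of the reads of the list and *Lamp2*, a main glycoprotein of the lysosomal membrane that also serves chaperone-mediated autophagy, had 13.7%. *Man2b1*, the lysosomal alpha-mannosidase, had 9.17%, *Ctsd*, the main lysosomal aspartic protease, 6.48%, *Ctsb*, a cysteine protease, 6.37%, and *Ppt1*, which removes palmitate from proteins, 6.04%. These 6 genes made up 60.4% of the list.

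Length changes the order of the genes. Reads per base of exon, scaled to the same total over all genes as CPM (the reads on a gene per 1000000 reads on genes), were 398 for *Cd63*, 217 for *Ctsd*, 172 for *Hexa*, the alpha subunit of beta-hexosaminidase, 129 for *Ppt1*, 125 for *Ctsz* and 112 for *Lamp2*. On the same scale *Npc1*, the cholesterol exporter of the lysosomal membrane, reached 0.511, *Gaa*, the acid alpha-glucosidase that breaks down glycogen, 0.651 and *Mcoln1*, a calcium channel of the lysosome, 1.04. Between *Cd63* and *Npc1* the level per length thus spans the whole list, and the members of one glycosidase or lipid group did not share a level.

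Detection, meaning at least 1 read in a cell with 50000 or more reads, was broad for a few genes and rare for a few others. *Lamp2* was detected in 139 of 164 cells (84.8%, exact 95% interval 78.3 to 89.9%), *Ctsd* in 73.2% (65.7 to 79.8%) and *Cd63* in 70.1% (62.5 to 77%). *Mcoln1* was detected in 11 cells (6.71%, 3.40 to 11.7%), *Lgmn*, an asparaginyl endopeptidase, in 13 (7.93%, 4.29 to 13.2%) and *Glb1*, the lysosomal beta-galactosidase, in 14 (8.54%, 4.75 to 13.9%). In all, 6 genes were detected in over 50% of the cells and 3 in under 10%, and the median over the list was 28.7%. The intervals cover counting error over cells only. They treat cells as independent, although cells of one capture share their mice. Reads without molecular identifiers also do not count independent molecules.

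Levels were uneven from cell to cell. A cell held a median of 9 of the 29 genes (1 to 24), and a median of 59.2% of its lysosomal reads fell on a single gene. *Cd63* was that gene in 33 of the 164 cells, *Lamp2* in 24 and *Ctsd* in 18, and 24 different genes led at least 1 cell. For 20 of the 29 genes a single cell contributed over 20% of all reads. *Lgmn* had 66.9% of its reads in 1 cell and 81.8% in capture 32, *Mcoln1* had 58.6% in 1 cell of capture 32, and *Ctss*, an elastin-degrading cysteine protease of antigen-presenting cells, had 58.4% in capture 40. *Asah1*, the acid ceramidase, had 44.8% of its reads in 1 cell of capture 17c.

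**Figure D1:**
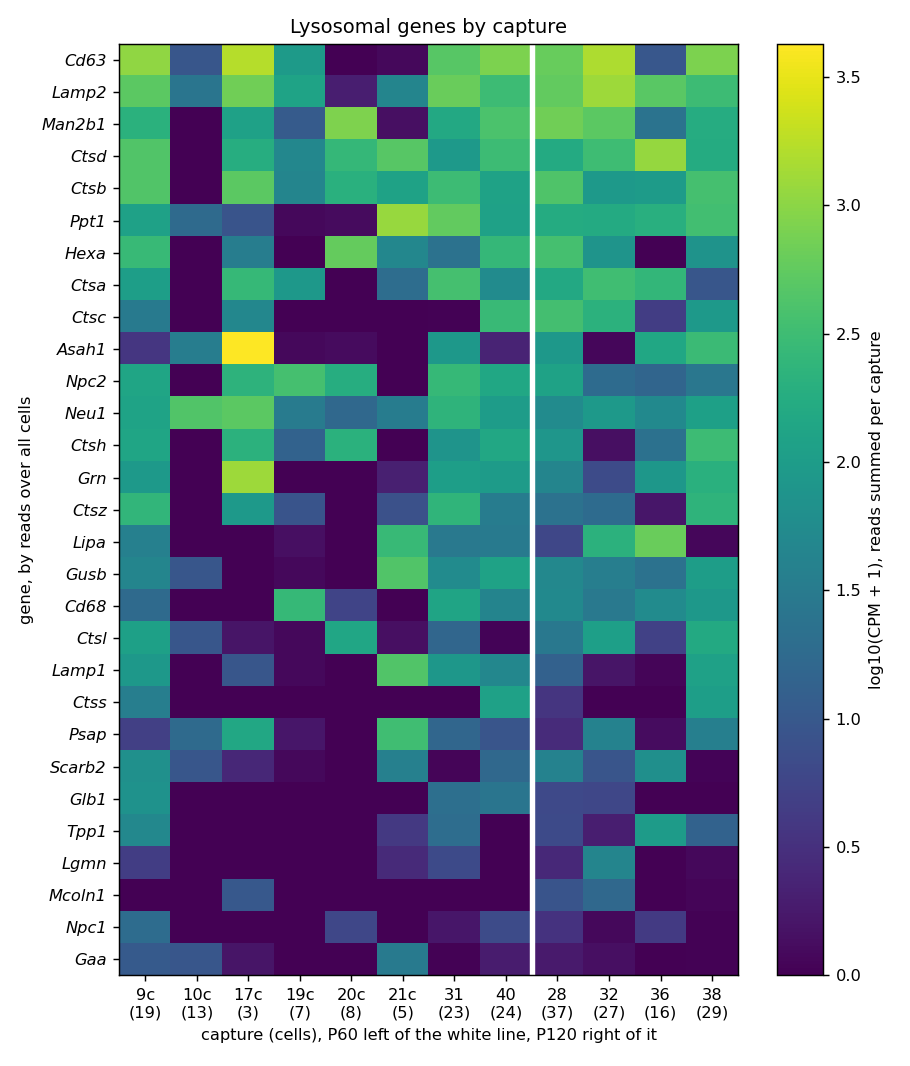
Reads of the 29 genes summed over the cells of each capture, as log10(CPM + 1), with genes ordered by their reads over all cells and the number of cells under each capture. Cd63 and Lamp2 sit at the top, Asah1 is brightest in capture 17c, and 19 of the 29 genes have no reads in capture 10c.

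The share of reads in the 29 genes was compared between the ages with each capture as a replicate. At P60 it ran from 0.0579% in capture 10c over a median of 0.354% to 1.03% in capture 17c. At P120 it was 0.412% in capture 28, 0.515% in capture 32, 0.339% in capture 36 and 0.415% in capture 38. The P60 captures spread on both sides of all the P120 captures. The mean was 0.374% ± 0.299 (SD, n = 8 captures) at P60 and 0.420% ± 0.0722 (n = 4) at P120, a difference far smaller than the spread at P60. Without capture 17c, whose 3 cells had *Asah1* as 41.3% of their lysosomal reads, the P60 mean was 0.281% ± 0.149. Without capture 10c it was 0.420% ± 0.291. The P60 captures sequenced in the same runs as P120, 31 and 40, gave 0.399% and 0.360%, while the other 6 P60 captures came from a run that held no P120 cells. With the cells of a capture weighted equally, in place of by their reads, the difference turned, and P120 lay 0.144 percentage points under P60 (-0.144).

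The number of genes of the list detected per cell overlapped between the ages as well. The capture means ran from 4.29 over a median of 9.70 to 12.3 at P60, and from 7.82 to 11.4 at P120. Averaged over captures they were 8.77 ± 3.33 (SD, n = 8) at P60 and 9.13 ± 1.67 (n = 4) at P120. After each cell was thinned to 50000 reads the order turned, with 5.68 at P60 and 4.91 at P120. Within the runs that hold both ages, P120 cells had 2.83 fewer (-2.83), and the means of P60 captures 31 and 40, 11.6 and 12.3, both lay above those of the 4 P120 captures. After thinning capture 31 (6.83) fell within the P120 range, whose highest value was 6.84 in capture 28, while capture 40 (7.55) stayed above it. With 2 P60 captures in these runs, that difference was not tested.

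No gene of the list passed the test between the ages. With reads summed by capture and p-values adjusted after Benjamini-Hochberg over the 8346 genes tested, edgeR's quasi-likelihood test called 0 of the 27 members tested in either direction, against a background of 0.0599% of all genes called higher at P120 and 0.0599% called higher at P60. DESeq2 also called 0 members, and 0.0359% and 0.0479% of all genes. At an unadjusted p under 0.05 edgeR gave 1 member, and 3.82% of all genes, as higher at P120, and 0 members, and 1.49% of all genes, as higher at P60. *Gaa* and *Mcoln1* were too low to be tested. The median log2 fold change of the members was 0.32 and that of all genes tested 0.26. No member had all P120 captures above all P60 captures or the reverse, which 0.419% and 0% of the genes tested did.

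The 2 members furthest toward P120 depended on capture 36. *Lipa*, the acid lipase that frees cholesterol from its esters, had 4.99 CPM in capture 28, 216 in 32, 629 in 36 and 0.153 in 38, against 0 to 275 with a median of 14.2 at P60. The P120 captures thus fall at both ends of the P60 range. Its log2 fold change was 3.19 (SE 1.57, unadjusted p = 0.0426, adjusted p = 0.915 by edgeR's quasi-likelihood test), and 0.39 without capture 36. *Tpp1*, a tripeptidyl peptidase, had 5.49, 0.988, 96.1 and 12.9 CPM in P120 captures 28, 32, 36 and 38 and a P60 median of 0.0124 (0 to 48.3). Its log2 fold change was 3.04 (SE 2.09) and turned to -0.19 without capture 36.

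In the other direction, *Glb1* had 5.31 and 4.85 CPM in captures 28 and 32 and none in 36 and 38, and at P60 5 of 8 captures were at 0 while the highest held 69.2. *Npc2*, the soluble cholesterol carrier that hands its load to NPC1, had 122, 17.7, 14 and 26.8 CPM in captures 28, 32, 36 and 38 and a P60 median of 162 (0 to 360). All 4 P120 captures lay under the P60 median, within its range. The log2 fold changes were -2.63 (SE 2.56) for *Glb1* and -2.09 (SE 1.86) for *Npc2*, each with an adjusted p that edgeR's quasi-likelihood test put at 1.0. With a capture left out they ran from -3.20 to -1.85 and from -2.76 to -1.64.

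The 6 leading genes overlapped between the ages as well. *Cd63* ran from 0 over 287 to 1694 CPM at P60, and was 606, 1542, 8.77 and 825 CPM in P120 captures 28, 32, 36 and 38. Capture 36 thus fell near the bottom of the P60 range and capture 32 near its top. *Lamp2* ran from 1.03 over 215 to 700 CPM at P60 and from 311 to 1265 at P120. *Ctsd* was highest of all in capture 36, at 1123 CPM, against 166 to 316 in the other P120 captures and 0 to 487 at P60. Without that capture its log2 fold change of 1.96 (SE 1.39) became -0.12. *Man2b1*, *Ctsb* and *Ppt1* had log2 fold changes of 0.37, 0.41 and 0.06 with SEs between 1.51 and 1.53, none distinguishable from 0.

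The second comparison set cells with primary granule transcripts against cells with *Il1b*, the interleukin 1 beta gene that mature neutrophils express. Precursor-positive cells had 10 or more reads of *Elane* (neutrophil elastase) or *Mpo* (myeloperoxidase) and fewer than 10 of *Il1b*, and *Il1b*-positive cells had the reverse. There were 43 precursor-positive cells (17 at P60, 26 at P120), 92 *Il1b*-positive cells (39 and 53), 24 with both and 52 with neither. Captures 9c, 28, 32 and 38 held at least 3 cells of each class and were compared within the capture. They gave 4, 16, 7 and 3 precursor-positive and 7, 7, 13 and 18 *Il1b*-positive cells, so that some class sums rest on very few cells. Over these class sums the 11 neutrophil genes took 5.79 to 11.6% of reads in precursor-positive and 12 to 22.5% in *Il1b*-positive cells. The basophil and mast cell genes took 3.47% and 5.97% in the precursor-positive cells of captures 9c and 32, 0.0311% and 0.00572% in those of captures 28 and 38, and 0.104 to 0.335% in *Il1b*-positive cells, and their part in the results below was not tested.

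Precursor-positive cells held more of the 29 genes per cell. In captures 9c, 28, 32 and 38 the mean was 16.7, 12.2, 13.2 and 18 genes in precursor-positive cells with 50000 or more reads, and 7.57, 9.50, 6.18 and 6.07 in *Il1b*-positive cells. The classes did not overlap. Averaged over captures this was 15 ± 2.77 against 7.33 ± 1.60 (SD, n = 4). Precursor-positive cells were also deeper, with medians of 1804540 and 755028 reads. Thinned to 50000 reads, the values were 9.81 ± 3.62 and 4.64 ± 1.86, with precursor-positive cells higher in each of the 4 captures.

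The number of all genes detected moved in the same way. At 50000 reads precursor-positive cells had 2558 ± 519 genes and *Il1b*-positive cells 1066 ± 339 (SD, n = 4 captures). Over all captures, the 38 precursor-positive cells had a median of 8 members and 2445 genes, the 78 *Il1b*-positive cells 4 and 743, the 20 cells with both 8 and 2115, and the 28 cells with neither 4 and 1014. Among cells with 1000 to 2000 genes, a range chosen after the values were seen, 11 precursor-positive cells had a median of 6 members (2 to 9) and 19 *Il1b*-positive cells a median of 6 (4 to 10). Within this range the precursor-positive cells still had more genes, with a median of 1700 against 1297.

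**Figure D2:**
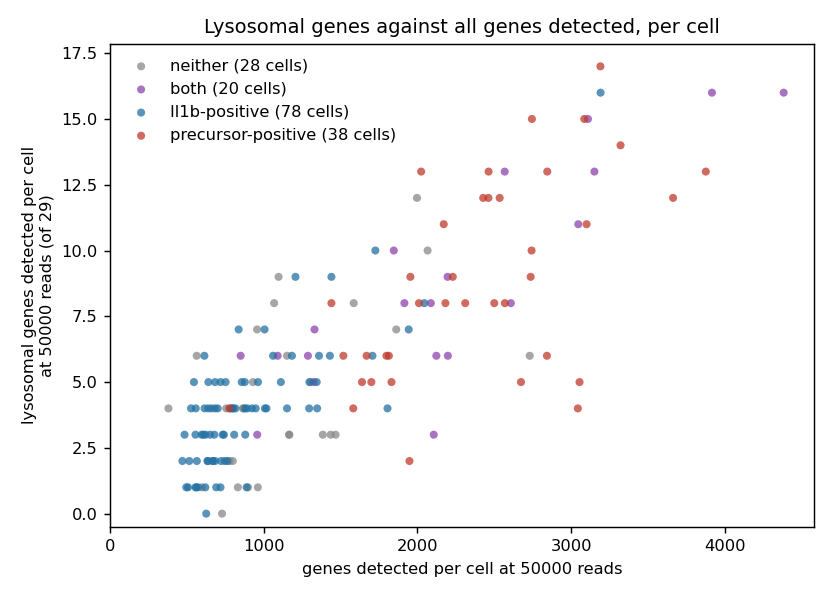
Each point is 1 of 164 cells thinned to 50000 reads, with the number of all genes detected on the x axis and the number of the 29 lysosomal genes on the y axis, coloured by class. Il1b-positive cells crowd at the lower left (median 743 genes and 4 members) and precursor-positive cells spread to the upper right (2445 and 8).

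The share of reads did not separate the classes. It was 0.559%, 0.325%, 0.468% and 0.904% in the precursor-positive cells of captures 9c, 28, 32 and 38, and 0.424%, 0.244%, 0.604% and 0.413% in their *Il1b*-positive cells. Precursor-positive cells were higher in 3 of 4 captures and lower in capture 32. The means were 0.564% ± 0.246 and 0.421% ± 0.147 (SD, n = 4), a difference of 0.143 percentage points that dropped to 0.0266 without capture 38 and turned to -0.0500 over the 7 captures with at least 1 cell of each class. By role, glycosidases took 0.0982% ± 0.0342 of reads in precursor-positive and 0.0412% ± 0.0301 in *Il1b*-positive cells, and membrane proteins 0.256% ± 0.112 and 0.173% ± 0.134. Proteases took 0.120% ± 0.0653 and 0.144% ± 0.0552, and lipid genes 0.0526% ± 0.0156 and 0.0603% ± 0.0316. In each of these 4 roles the captures of the classes overlapped, and within captures precursor-positive cells were higher in 4 of 4 for glycosidases and in 2 of 4 for membrane proteins.

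No member passed the test between the classes. With captures as blocks and adjustment over 9380 genes, edgeR's quasi-likelihood test called 0 of 26 members tested, against a background of 0.0746% of all genes called higher in precursor-positive cells (7 genes) and 0.874% called higher in *Il1b*-positive cells (82 genes). With library totals alone as the scale the split over all genes was 36 and 42, and with DESeq2 it was 1604 and 623. At an unadjusted p under 0.05, 2 members were higher in precursor-positive cells (*Ctsc*, *Lamp1*), as were 9.24% of all genes, and 2 were higher in *Il1b*-positive cells (*Ppt1*, *Cd68*), as were 4.54%. DESeq2 called 3 members higher in precursor-positive cells (*Ctsc*, *Lamp1*, *Gusb*; 17.1% of all genes) and 3 higher in *Il1b*-positive cells (*Ppt1*, *Cd68*, *Ctsl*; 6.64%). *Gaa*, *Npc1* and *Mcoln1* were too low to be tested. The median log2 fold change was 0.72 for the members and 2.00 for all genes, so that 9 of the 26 members lay above the typical gene and 17 below it.

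**Figure D3:**
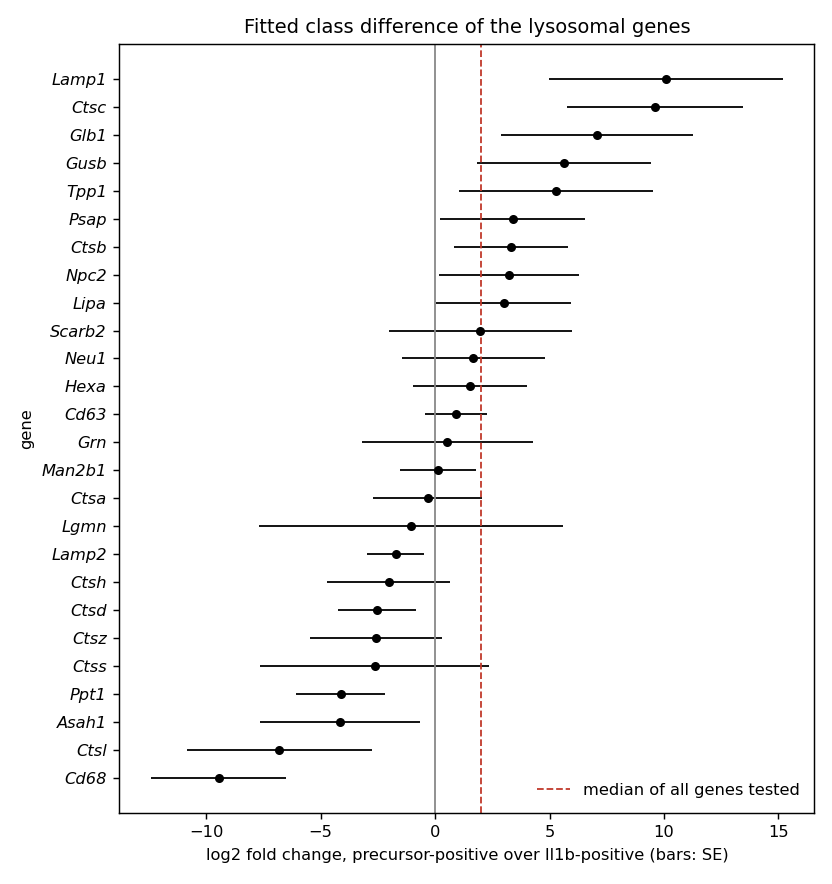
Log2 fold change (x axis) of the 26 tested genes between precursor-positive and Il1b-positive cells over 4 captures, with bars for 1 SE. Lamp1 (10.09) and Ctsc (9.61) are at the top and Cd68 (-9.46) at the bottom, and the dashed line marks the median of all genes tested (2.00).

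*Cd63* stood out by its level in precursor-positive cells. It had 2385, 573, 2107 and 1998 CPM in those of captures 9c, 28, 32 and 38, and 76.5, 400, 624 and 693 CPM in *Il1b*-positive cells. It was higher in precursor-positive cells in every capture, by the least in capture 28. The same held for *Ctsc*, *Lipa* and *Psap*, the precursor of the saposins that help lipid hydrolases, which makes 4 of 26 members against 19.3% of all genes tested. It was detected in 94.7% of precursor-positive cells (82.3 to 99.4%) and 47.4% of *Il1b*-positive cells (36 to 59.1%), with medians of 1181 and 9.30 CPM in the cells that had it. It was the leading member in 16 of 38 precursor-positive and 4 of 78 *Il1b*-positive cells. Its fitted log2 fold change was 0.91 (SE 1.34, adjusted p = 0.764 by edgeR's quasi-likelihood test), which lies under the median of all genes, and 0.07 without capture 9c. The *Cd63* levels of 2385, 573, 2107 and 1998 CPM stood beside basophil and mast cell shares of 3.47%, 0.0311%, 5.97% and 0.00572%. The part of basophil and mast cell transcripts in them was not tested, and capture 38 rests on 3 precursor-positive cells.

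*Ctsc*, cathepsin C, had 93.2, 5.89, 88.6 and 598 CPM in the precursor-positive cells of captures 9c, 28, 32 and 38, and 0, 0.272, 0 and 0.149 CPM in *Il1b*-positive cells. Over the 4 captures that is 4168 reads against 4, with 56.2% of the 4168 in capture 38. There 1 of the 2 precursor-positive cells counted for detection had *Ctsc*. Over all captures, *Ctsc* reached 1111 CPM in precursor-positive and 26.9 CPM in *Il1b*-positive cells counted for detection. It reached 7974 CPM in a cell with both markers and 16428.5 CPM in a cell with neither. In capture 28, 1 cell with both markers held 41.2% of all *Ctsc* reads. The log2 fold change was 9.61 (SE 3.84, unadjusted p = 0.0123, adjusted p = 0.297 by edgeR's quasi-likelihood test). *Lamp1*, a main glycoprotein of the lysosomal membrane, had 236, 22.2, 0 and 778 CPM against 0, 3.53, 0 and 0. It was absent from both classes of capture 32, and 1 precursor-positive cell of capture 38 held 26.5% of all *Lamp1* reads. Its log2 fold change was 10.09 (SE 5.10, adjusted p = 0.361), which became 4.93 without capture 9c and 4.39 without capture 38. *Glb1* had 42, 0, 1.17 and 0 CPM in precursor-positive cells and no read in the *Il1b*-positive cells of the 4 captures. Pooled over these 4 captures and set against a floor of 3 *Il1b*-positive reads, it was at least 42.6-fold higher. That value rests on few cells, with 89.3% of the 169 precursor-positive *Glb1* reads in capture 9c. There 1 of the 3 precursor-positive cells counted for detection had *Glb1*. Over all captures, 5 of 38 precursor-positive cells counted for detection had it, at up to 120 CPM. So did 4 of 78 *Il1b*-positive cells, at up to 117 CPM, and the fold does not cover them.

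*Cd68*, a macrosialin of the lysosomal membrane best known from macrophages, ran the other way. It had 0, 2.22, 0.0652 and 1.79 CPM in the precursor-positive cells of captures 9c, 28, 32 and 38, and 78.3, 301, 85.3 and 165 CPM in *Il1b*-positive cells. It was higher in *Il1b*-positive cells in every capture, as were 4.64% of all genes tested. Over all captures, *Cd68* reached up to 549 CPM in precursor-positive cells counted for detection and up to 3588 CPM in *Il1b*-positive ones. The log2 fold change was -9.46 (SE 2.96, unadjusted p = 0.00138, adjusted p = 0.105 by edgeR's quasi-likelihood test). The intervals of the shares of cells overlapped, 23.7% of precursor-positive (11.4 to 40.2%) and 28.2% of *Il1b*-positive cells (18.6 to 39.5%), whereas the median in cells that had it was 2.85 and 98.4 CPM. The 11 monocyte and macrophage genes took 1.3e-05 to 0.0189% of reads in precursor-positive and 0.000576 to 0.0485% in *Il1b*-positive cells, with *Ms4a7* and *Ly86* at 0 in *Il1b*-positive cells and *Cx3cr1* and *Ms4a7* at 0 in precursor-positive cells. Of that list 3 genes were tested between the classes. *Csf1r*, the receptor of a macrophage growth factor, had 7.80, 46.1, 0.279 and 456 CPM in *Il1b*-positive cells of captures 9c, 28, 32 and 38. In precursor-positive cells it had 0, 0.0443, 0.0652 and 0.766 CPM. *C1qa*, a complement gene of macrophages, had 0, 20.7, 0 and 28.4 CPM in *Il1b*-positive cells against 0, 0.355, 0.0652 and 1.28. *Mrc1* ran opposite to *Cd68*, with 0.354, 0.136, 0 and 0.0745 CPM in *Il1b*-positive cells. Its precursor-positive values were 1.39, 30.8, 0 and 1.79 CPM. The part of these genes in the *Cd68* difference was not tested.

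*Ppt1* had 8.90, 11.7, 47.4 and 296 CPM in precursor-positive cells of captures 9c, 28, 32 and 38 and 525, 96.1, 354 and 476 CPM in *Il1b*-positive cells. It was lower in precursor-positive cells in every capture, as was *Cd68*, 2 of 26 members against 4.64% of all genes tested. Its log2 fold change was -4.13 (SE 1.95, adjusted p = 0.346 by edgeR's quasi-likelihood test). *Ctsl*, a cysteine protease, had 0, 12, 21.6 and 0.255 CPM against 58.1, 124, 0.279 and 311, and in capture 32 the order was the reverse of the others. *Asah1* had 0, 164, 0.130 and 0.511 CPM against 4.61, 0.136, 0.279 and 566, so each class was high in a single capture. The log2 fold changes of *Ctsl* and *Asah1* were -6.80 (SE 4.05) and -4.14 (SE 3.50).

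*Lamp2* and *Ctsd* were abundant in both classes. *Lamp2* had 274, 320, 618 and 834 CPM in precursor-positive and 599, 474, 3002 and 361 CPM in *Il1b*-positive cells of captures 9c, 28, 32 and 38. The value of 3002 rests on 1 *Il1b*-positive cell that held 21.3% of all *Lamp2* reads. *Ctsd* had 482, 175, 113 and 51.1 CPM against 1073, 162, 645 and 283, lower in precursor-positive cells in 3 of 4 captures. It was the leading member in 14 *Il1b*-positive cells and 1 precursor-positive cell. *Ctsb* had 87.1, 803, 152 and 1288 CPM against 448, 3.13, 3.07 and 82.1, with capture 9c opposite to the others, and *Man2b1* had a log2 fold change of 0.13 (SE 1.66). The log2 fold changes of *Lamp2*, *Ctsd* and *Ctsb* were -1.71 (SE 1.24), -2.54 (SE 1.68) and 3.32 (SE 2.48).

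**Figure D4:**
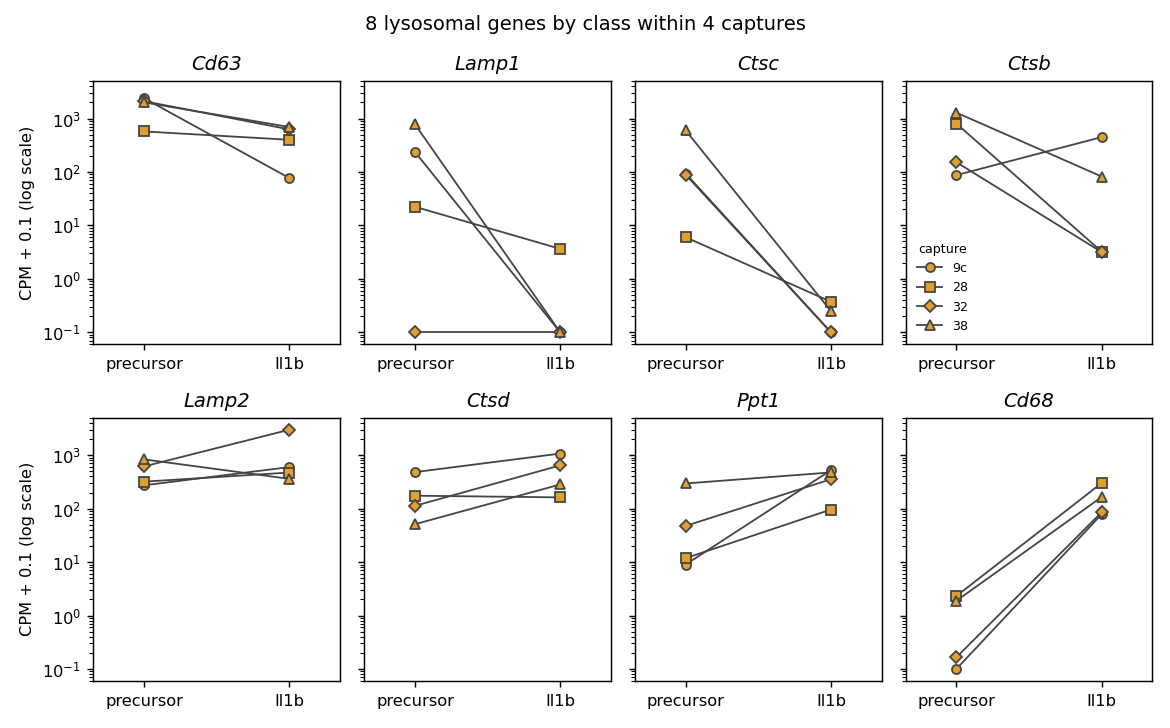
CPM + 0.1 (log axis) of 8 genes in precursor-positive and Il1b-positive cells, with a line for each of the 4 captures. Cd63 and Ctsc slope down in every capture and Ppt1 and Cd68 slope up, while Lamp1, Ctsb, Lamp2 and Ctsd have at least 1 capture that is flat or runs the other way.

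By detection, 27 of the 29 genes were seen in a larger share of precursor-positive than of *Il1b*-positive cells, both as deposited and after thinning, the exceptions being *Cd68* and *Ctsl*. Of all genes seen in at least 5% of cells, 89.8% had this direction as deposited and 82.3% after thinning, and 10% and 13.6% had the reverse, so the count lies near that of all genes. Within captures, 13 of 29 were detected more often in precursor-positive cells in all 4, against 31.6% of the same genes, and 0 were detected more often in *Il1b*-positive cells in all 4, against 1.74%. After thinning to 50000 reads these were 7 genes (*Ctsb*, *Ctsd*, *Ctsz*, *Hexa*, *Gusb*, *Neu1*, *Npc2*) against 15.6%, and 1 gene (*Cd68*) against 1.90%. With reads as deposited the widest gaps were in *Hexa*, with 76.3% of precursor-positive and 16.7% of *Il1b*-positive cells, *Grn* (68.4% and 11.5%), *Npc2* (76.3% and 24.4%), *Gusb*, the beta-glucuronidase (60.5% and 10.3%) and *Ctsb* (92.1% and 42.3%), named after their values were seen. After thinning the order changed, and the widest gaps were in *Cd63* (84.2% and 28.2%), *Ctsb* (63.2% and 15.4%) and *Npc2* (52.6% and 10.3%). The exact intervals of the classes were apart, with precursor-positive cells higher, for 13 members as deposited (51.6% of all genes) and for 10 after thinning (28.6%). With *Il1b*-positive cells higher they were apart for 0 members, against 1% of all genes as deposited and 1.09% after thinning. These intervals pool the cells of all captures and ignore the pairing by capture. They describe the cells counted and do not test the classes.

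Detection and level did not always point the same way. *Ctsd* and *Ctsz*, a carboxypeptidase, were detected more often in precursor-positive cells in every capture, yet their CPM were lower there in 3 of 4. For *Ctsz* the sums were 59.8, 6.51, 26.5 and 30.9 CPM in precursor-positive cells and 156, 54, 0.0929 and 440 CPM in *Il1b*-positive cells. *Grn*, whose product is cut into granulins in the lysosome, was found in most precursor-positive cells, but its sums of 265, 8.33, 0.130 and 1234 CPM against 11, 59.4, 0.372 and 35.7 were higher there in 2 of 4 captures.

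**Figure D5:**
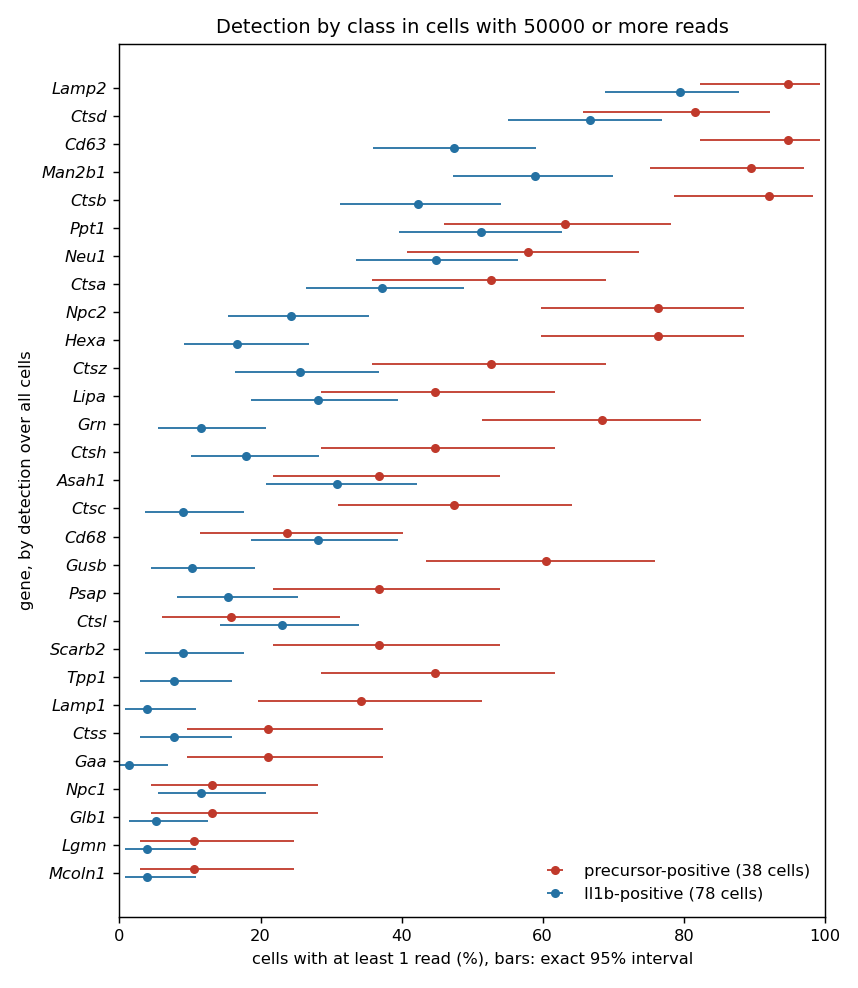
Percent of cells with at least 1 read of each gene (x axis), with exact 95% intervals. The cells are 38 precursor-positive and 78 Il1b-positive cells with 50000 or more reads, pooled over captures. Precursor-positive cells lie to the right for 27 of the 29 genes, and the intervals are apart for 13 of them, such as Cd63 and Hexa, against 51.6% of all genes seen in at least 5% of cells.

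At each age the classes kept this order. With reads as deposited, the P60 median was 16 members in 15 precursor-positive cells and 7 in 35 *Il1b*-positive cells. At P120 it was 13 in 23 and 7 in 43. Cells with both markers had 14.5 members in 8 cells at P60 and 11.5 in 12 cells at P120. Cells with neither had 8 in 22 cells and 7 in 6. *Il1b*-positive cells thus had the same median at P60 and P120, and cells with both markers lay nearer to the precursor-positive cells.

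Other parts of the lysosomal system were read from 6 further lists with 95 genes. For the ages 74 of these genes were tested and 0 were called by edgeR, against 0.0599% of all genes in each direction. Between the classes 73 were tested and 1 was called, *Plbd1*, a phospholipase B-like hydrolase higher in *Il1b*-positive cells. Of all genes 0.874% were called in that direction and 0.0746% in the other, so the count lies near that of all genes. *Plbd1* had 0, 15, 119 and 0.255 CPM in precursor-positive cells of captures 9c, 28, 32 and 38. In *Il1b*-positive cells it had 85.1, 1719, 407 and 652 CPM (log2 fold change -8.90, SE 2.26, adjusted p = 0.0129 by edgeR's quasi-likelihood test). It was higher in *Il1b*-positive cells in 4 of 4 captures, as were 4.64% of all genes tested. The median class log2 fold change was 4.03 over 19 further enzymes, 1.99 over 13 further membrane proteins, 0.21 over 17 subunits of the vacuolar ATPase that acidifies the lysosome, and 3.02 over 10 genes of enzyme sorting, beside 2.00 for all genes. Over 8 regulators such as *Tfeb* it was 0.49, and over 6 cathepsin inhibitors -0.69. *Tfeb* had 0, 1.95, 0.391 and 0 CPM in precursor-positive and 50, 0.272, 5.58 and 101.4 CPM in *Il1b*-positive cells and did not pass the test (adjusted p = 0.445 by edgeR). Of the 6 tested members with CACGTG in their window, *Lamp1* and *Glb1* had positive class log2 fold changes, and *Ctsa* (-0.32), *Ctsd*, *Ctsl* and *Lgmn* (-1.04) negative ones. Positive values were found for 15 of the 26 members tested and for 66.3% of all genes tested. None of the 6 passed the test, and their SEs ran from 1.68 for *Ctsd* to 6.64 for *Lgmn*. Any link of these directions to *Tfeb* was not tested.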

How the data were processed

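The authors sorted GFP-positive cochlear cells, made 1 full-length cDNA library per cell on the Fluidigm C1, aligned the reads with STAR to GRCm38 (mm10 in the submitters' processing notes) with the vM11 annotation, and counted reads per gene. They removed endothelial cells and outliers before deposit. The deposited table holds raw read counts for 211 cells (102 at P60, 109 at P120), and a second deposited table records age, capture, run and the uniquely mapped read count of every cell. No 2 cells had identical counts.

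Symbols came from gene identifiers without their version (48349 of 48709 matched), and exon lengths and positions from GENCODE vM21 on the same build. The 92 spike-in sequences were left out. Sums of counts by capture, and by class within capture, were tested with edgeR 4.0.16 (TMM, filterByExpr, quasi-likelihood test, Benjamini-Hochberg at 0.05) in R 4.3.3, with DESeq2 1.42.0 as the other tool. The capture, which pools mice, was the replicate. Both classes of a capture come from the same mice, so the capture was a block. *Elane*, *Mpo* and *Il1b* were left out of all counts of calls. The fitting step was tested on simulated counts, which says nothing of its power at the spread seen here. Shares and detection over the list carry no test. Thinning drew 50000 reads per cell without replacement, which left out 47 shallower cells. Intervals are exact (Clopper-Pearson, 95%), and no doublet caller was run.

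The members and the lists were chosen with earlier results of these data known. Values are given for the 6 members with most reads, the 3 detected in most and the 3 in fewest cells, every called member, the 3 members (2 for the ages) furthest apart in each direction, those with 50% or more of their reads in 1 capture, and up to 3 called genes of each other list. Any other member with values was named after they were seen, as was the 5% detection minimum set. Alternatives covered the scaling, the tool, filters, depth, runs, class rules and leaving out each capture. Python 3.11.15, pandas 2.3.3, scipy 1.17.1 and matplotlib 3.10.9 were used.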

Additional observations from a re-analysis of the deposited data

Results flagged for a closer look

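Of 51 groups of 4 or 8 captures examined, 15 had 1 capture whose gap to the nearest other exceeded Dixon's 95% limit. That limit assumes normally distributed values. Some of the sums are 0, and several genes were picked for their fold changes in these data. The number flagged can therefore not be set against a chance rate. The share of reads in the 29 genes at P60 was 1.03% in capture 17c, which holds 3 cells. At P60, *Lipa* reached 275 CPM in capture 21c, and capture 9c held 48.3 CPM of *Tpp1* and 69.2 CPM of *Glb1*. At P120, capture 36 stood apart with 1123 CPM of *Ctsd* and 96.1 CPM of *Tpp1*, capture 38 with 339 CPM of *Ppt1* and capture 28 with 122 CPM of *Npc2*. In precursor-positive cells, capture 38 held 296 CPM of *Ppt1* and 598 CPM of *Ctsc*, capture 28 held 164 CPM of *Asah1*, and capture 9c held 42 CPM of *Glb1*. In *Il1b*-positive cells, capture 32 held 3002 CPM of *Lamp2*, capture 38 held 566 CPM of *Asah1*, and capture 28 held 3.53 CPM of *Lamp1* while the other 3 were at 0.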

How the results depend on the processing

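Over 356 recomputed log2 fold changes of named members, 329 kept their direction and their side of the threshold, 5 passed it with DESeq2 only, and 22 turned. No member was called for the ages under any alternative, and none for the classes except the 6 that DESeq2 called. For the ages, differences in share and in members per cell moved by less than 1 SD of the P60 captures, and for the classes by less than 1 SD of the differences within captures, although some of these moves exceed the smaller SD of the P120 captures or of the *Il1b*-positive sums, and the age difference in share ran from 0.000569 without capture 10c to 0.139 percentage points without 17c, and that in members per cell from -0.389 to 0.868. The class difference in share ran from 0.0266 to 0.236 and that in members per cell from 6.26 to 9.34 with a capture left out.

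The percentage of all genes tested that were called moved more. For the ages (0.0599% higher at P120 and 0.0599% at P60) it was 0 and 0.0120 with RLE size factors, 0.0120 higher at P120 with library totals, 0.0359 higher at P120 with DESeq2, 0.0182 higher at P60 without the filter, 0.0363 higher at P120 in cells with 50000 or more reads, 0.0177 and 0 within the shared runs, 0 and 0 with the run as a covariate, and 0.0102 to 0.120 and 0 to 0.0960 with a capture left out. For the classes (0.0746% higher in precursor-positive and 0.874% in *Il1b*-positive cells) it was 0.117 higher in precursor-positive cells with RLE, 0.384 and 0.448 with library totals, 17.1 and 6.64 with DESeq2, 0.0278 and 0.236 without the filter, 0.441 higher in *Il1b*-positive cells in deep cells, 1.08 higher in precursor-positive cells with at least 1 cell a class, 0 and 0.0528 with at least 5, 0.333 higher in precursor-positive cells with double-positive cells as precursors, and 0.0357 to 0.142 and 0.393 to 0.864 with a capture left out. Without the replicate block, the pairing of classes by capture, it was 0.191 and 0.485, and 0 members were called.

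For the ages, *Ctsb* turned to -0.0385 with RLE and -0.0540 with DESeq2, and *Ppt1*, at 0.06, to -0.61 with RLE, -0.32 with library totals, -0.0597 in deep cells, -0.47 within the shared runs and -0.54 with the run as a covariate. With a capture left out *Ppt1* ran from -0.26 to 1.04, *Man2b1* from -0.0113 to 1.37, *Ctsd* from -0.12 to 2.33 and *Tpp1* from -0.19 to 4.01. For the classes, *Man2b1* turned to -0.12 in deep cells and -0.76 after thinning and ran from -0.10 to 0.46, and *Ctsl* turned to 0.30 with at least 5 cells a class, which leaves 2 captures. The cause of these turns was not tested. A cut of 1 read in place of 10 could not be fitted, since no capture then held 3 cells of each class. *Gaa* and *Mcoln1* in both comparisons and *Npc1* in that of the classes had too few reads to be tested.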
